A study of Mus musculus with 15 samples.

Results

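The regulators of G protein signalling (RGS) described here are Rgs2, Rgs3, Rgs4, Rgs5, Rgs10, Rgs12, Rgs14, Rgs16, Rgs19 and Rgs20, 10 genes out of 54343 gene entries measured in the mouse line MC38 and 55303 in the mouse line B16-F10. They were selected on a measured value, the higher level of Rgs5 in MC38 cells that overexpressed Ssbp4, and were found by their symbols, all 10 of which had an entry in both lines. Their MC38 differences are therefore given as a description with no test. By their place in the family 5 of them belong to the R4 group (Rgs2, Rgs3, Rgs4, Rgs5 and Rgs16), 3 to the R12 group (Rgs10, Rgs12 and Rgs14) and 2 to the RZ group (Rgs19 and Rgs20).

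RGS proteins carry a shared domain that binds the activated alpha subunit of a heterotrimeric G protein and speeds its hydrolysis of GTP, so that signalling from a G protein-coupled receptor ends sooner. R4 proteins are mostly small and act on Gi and Gq alpha subunits, RZ proteins include members that act on Gz as well as Gi, and R12 proteins include large scaffolds with further domains. Several R4 genes are known for being switched on and off quickly by stimuli, and Rgs5 is widely used as a marker of pericytes, the contractile cells that wrap small blood vessels.

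Polyadenylated RNA was sequenced in 15 libraries. MC38, a colon adenocarcinoma line although the tissue label reads melanoma for it as well, gave 4 libraries of wild-type cells (WT) and 3 libraries of cells stably transduced with a retrovirus made from pMSCV-IRES-EGFP carrying murine Ssbp4 cDNA (OE). No group with the vector alone is named, so Ssbp4 and carriage of the vector with its EGFP reporter cannot be told apart. Whether WT and OE cells came from the same MC38 stock is not given in the sources used here, so a difference between stocks cannot be told apart from either. B16-F10, a melanoma line, gave 4 libraries labelled wild type (WT) and 4 labelled knockout (KO). The protocol describes nucleofection with Cas9 and either a control guide to an intergenic stretch or a mixture of guides against Ssbp4, and names no selection of single clones. Ssbp4 belongs to a family of single-stranded DNA binding proteins, and the series title places it in tumour immune evasion and cholesterol synthesis. No label names separate cultures for the libraries within a group, and p-values thus rest on a spread between libraries that may be technical.

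Values were deposited as FPKM, taken here as fragment counts scaled both to the length of the gene and to the mapped fragments of the library. They can thus be compared between genes. On that reading, the steps between low FPKM values put the depth of the MC38 libraries at 32.6 to 38.6 M fragments. That of the B16-F10 libraries was put at 32.7 to 49.0 M. Ssbp4 mRNA went with the labels, at 16.3 ± 2.05 FPKM in WT (SD, n = 4) and 534 ± 63.5 FPKM in OE (SD, n = 3) of MC38, and at 34.5 ± 2.37 FPKM in WT and 22.1 ± 2.29 FPKM in KO of B16-F10 (SD, n = 4 each), a ratio of 0.641. Melanocyte markers summed to 10982 to 14154 FPKM in B16-F10, with all 7 present. In MC38 the intestinal factor Cdx2 was at 0 in every library, and the epithelial genes Epcam and Krt18 stood at 0.846 ± 0.165 and 3.23 ± 0.407 FPKM in WT (SD, n = 4) and at 0 and 0.0607 ± 0.0883 FPKM in OE (SD, n = 3). Cdh1 and Krt19 were also lower in OE, at 0.306 and 0.170 FPKM in WT and 0.0333 and 0.0055 FPKM in OE. Vil1 was at 0.0218 FPKM in WT and 0.0151 FPKM in OE, with overlapping groups. Krt8, another keratin of the list, went the other way, at 3.22 ± 0.450 FPKM in WT (SD, n = 4) and 9.45 ± 1.06 FPKM in OE (SD, n = 3). The 7 epithelial genes summed to 6.68 to 8.86 FPKM in WT and 8.90 to 10.7 FPKM in OE, where most of the sum was Krt8. The part of these differences in the RGS values was not tested. In B16-F10 the WT libraries 1 and 2 stood apart from WT libraries 3 and 4 on the first principal component, which held 42.8% of the variance. Their scores were -9.42 and -10.3 against 17.8 and 17.8, and the 4 KO libraries lay between them at -7.81 to -1.91. On the second component, with 28.2% of the variance, the WT libraries lay at -12.0 to -3.90 and the KO libraries apart from them at 1.04 to 11.1.

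Rgs5, the R4 member whose protein damps Gi and Gq signalling in vascular mural cells, changed places most within the family. In MC38 it was measured at 0.230, 0.185, 0.198 and 0.307 FPKM in the 4 WT libraries and at 8.90, 9.09 and 9.59 FPKM in the 3 OE libraries. All OE libraries lay far above all WT libraries, and the spread within each group was small beside the gap. The means were 0.230 ± 0.0546 FPKM (SD, n = 4) and 9.19 ± 0.357 FPKM (SD, n = 3), a ratio of 40.0. On the log2(FPKM + 1) scale, which understates the change of a gene this low in WT, the difference was 3.05, rank 5 from the top among 10748 genes with a mean of at least 1 FPKM, and with a pseudocount of 0.1 it was 4.83. These are the values that selected the family and support nothing further. In B16-F10, Rgs5 was listed at 0 in 7 of 8 libraries and at 0.0104 FPKM in WT library 2, so its response to the knockout was not detectable at this depth.

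Rgs5 and Rgs4, another small R4 member known from brain and heart, are direct neighbours among protein-coding genes on chromosome 1 and face each other, with Nuf2 beyond Rgs5 and Ccdc190 beyond Rgs4. The 300-base windows around their starts, 250 bases before to 50 after, are shown because this pair of neighbours differed in level between the MC38 groups; they are RefSeq sequence of GRCm38.p6, an earlier build than the GRCm39 named in the submitters' processing notes. Rgs5 lies on the plus strand with its window at chr1:169655251-169655550, and Rgs4 on the minus strand with its window at chr1:169747593-169747892. Capitals mark matches to the searched motifs, on either strand, read 5′ to 3′ along the gene.
Rgs5 promoter window: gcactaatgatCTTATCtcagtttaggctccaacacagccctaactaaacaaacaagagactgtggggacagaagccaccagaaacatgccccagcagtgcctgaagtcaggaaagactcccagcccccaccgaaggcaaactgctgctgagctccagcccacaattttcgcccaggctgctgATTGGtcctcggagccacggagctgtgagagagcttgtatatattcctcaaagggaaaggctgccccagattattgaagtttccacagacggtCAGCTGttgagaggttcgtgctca
Rgs4 promoter window: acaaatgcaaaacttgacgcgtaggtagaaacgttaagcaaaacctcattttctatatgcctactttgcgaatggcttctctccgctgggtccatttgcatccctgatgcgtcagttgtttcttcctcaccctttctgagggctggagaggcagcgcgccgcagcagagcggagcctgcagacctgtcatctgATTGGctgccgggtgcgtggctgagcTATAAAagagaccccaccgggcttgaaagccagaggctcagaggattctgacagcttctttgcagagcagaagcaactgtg
Both strands were searched for the TATA box core TATAAA, the CCAAT box, the GC box core GGGCGG, the GATA factor motif GATAAG, an E-box of the form CAGCTG, another E-box of the form CACGTG and the cyclic AMP response element TGACGTCA, no one of which contains another. The Rgs5 window held GATAAG on the opposite strand at position -239 from the start, CCAAT on the opposite strand at position -67, and CAGCTG at position 27. The Rgs4 window held CCAAT on the opposite strand at position -57 and TATAAA at position -31. Of all 32851 windows of this length, 7.44% held GATAAG, 37.4% CCAAT, 16.3% CAGCTG and 13.6% TATAAA. The GC box core GGGCGG, present in 35.7% of all windows, was in a window of 6 members and not in that of Rgs5 or Rgs4, and CACGTG (7.15% of all windows) was in a window of 1 member, Rgs19. TGACGTCA, in 1.79% of all windows, was in no member window. Windows were listed for 8 of 10 members, 12 windows in all, and the Rgs5 window had 6 CG dinucleotides and the Rgs4 window 13, beside a median of 7 over all windows. A match says only that these letters stand there.

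Rgs4 was close to 0 throughout. It was listed at 0, 0, 0 and 0.0208 FPKM in MC38 WT and at 0.0705, 0.0781 and 0.188 FPKM in MC38 OE. The 3 OE libraries lay above the 4 WT libraries, at levels under 1 FPKM that left Rgs4 out of the fit. Its mean in OE, 0.112 FPKM, was far below the 9.19 FPKM of its neighbour Rgs5 in the same libraries. Nuf2, a kinetochore gene named here for its position after its values were seen, stood at 39.7 FPKM in WT and 52.0 FPKM in OE. Its groups did not overlap, as for 50.6% of all genes tested in MC38. Ccdc190 was at 0 in all MC38 libraries. Whether the authors' counting used strand is not given in the sources used here. Whether transcripts of the 2 facing genes run into each other was not tested. In B16-F10, Rgs4 ranged from 0 to 0.0421 FPKM in WT and from 0 to 0.0639 FPKM in KO, and the groups overlapped.

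Rgs3, an R4 member that also exists in longer forms and can bind G beta-gamma, was measured in MC38 at 3.19, 3.98, 3.58 and 4.27 FPKM in WT and at 7.00, 7.55 and 8.33 FPKM in OE. The lowest OE library was above the highest WT library. The means were 3.75 ± 0.472 (SD, n = 4) and 7.63 ± 0.665 FPKM (SD, n = 3), a ratio of 2.03 and a log2 difference of 0.86. With a pseudocount of 0.1 that difference was 1.01.

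Rgs16, an inducible R4 member, lay on the other side. Its MC38 libraries read 3.14, 3.37, 3.22 and 3.52 FPKM in WT and 1.98, 2.73 and 2.5005 FPKM in OE. Every OE library was below every WT library, with OE library 1 the lowest. The log2 difference was -0.35, from means of 3.31 ± 0.171 (SD, n = 4) and 2.40 ± 0.380 FPKM (SD, n = 3). Rgs2, an R4 member known for its preference for Gq, was at 2.91, 3.41, 2.94 and 3.20 FPKM in WT and at 2.20, 3.22 and 2.26 FPKM in OE. OE libraries 1 and 3 lay below all WT libraries and OE library 2 among them, so the groups overlapped, with a log2 difference of -0.22.

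Rgs19, the RZ member first described as a G alpha interacting protein, was the most abundant of the family in MC38. Its WT libraries read 49.3, 52.3, 50.04 and 53.6 FPKM and its OE libraries 44.7, 44.5 and 44.2 FPKM. The OE libraries were nearly identical to each other and all below the WT libraries. The means were 51.3 ± 2.01 (SD, n = 4) and 44.5 ± 0.284 FPKM (SD, n = 3), a ratio of 0.866 and a log2 difference of -0.20.

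Rgs20, the RZ member known for its action on Gz, was at 3.35, 3.01, 4.34 and 3.47 FPKM in MC38 WT and at 4.90, 4.78 and 4.99 FPKM in OE. WT library 3 came closest to the OE libraries, which were all higher. The log2 difference was 0.38, from means of 3.54 ± 0.565 (SD, n = 4) and 4.89 ± 0.105 FPKM (SD, n = 3). In B16-F10, Rgs20 was listed at 0 in 6 of 8 libraries, with 0.0481 FPKM in WT library 2 and 0.0120 FPKM in KO library 2.

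Among the R12 members the MC38 groups overlapped. Rgs10, a small protein with little beside its RGS domain, ranged from 12.9 to 15.4 FPKM in WT and from 14.1 to 16.6 FPKM in OE, a log2 difference of 0.13. Rgs12, a large scaffold with PDZ and Ras-binding domains, ranged from 3.43 to 3.92 FPKM in WT and from 2.99 to 3.49 FPKM in OE, a log2 difference of -0.13. Rgs14, which resembles Rgs12 in carrying Ras-binding and GoLoco domains, was at 0 in all WT libraries and at 0, 0.0122 and 0.0124 FPKM in OE. Neither Rgs10 nor Rgs12 separated the groups, and Rgs14 was not detectable in WT at this depth.

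**Figure D1:**
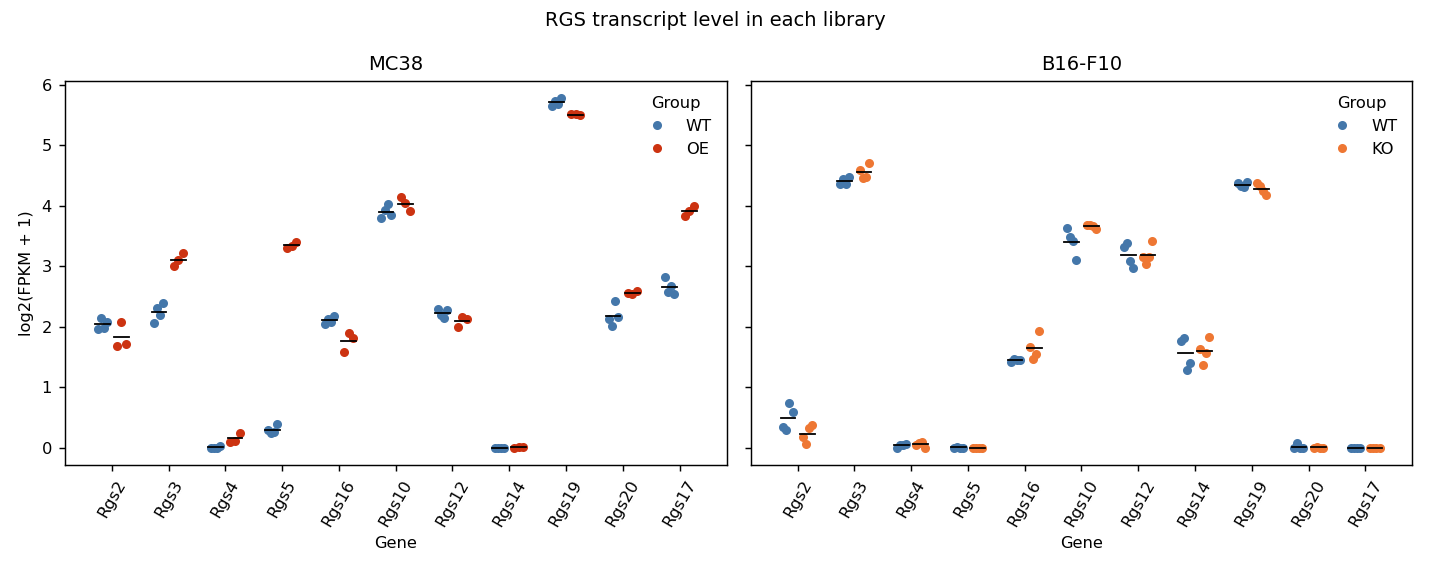
Level of each RGS gene in each library as log2(FPKM + 1), with MC38 on the left (4 WT and 3 OE libraries) and B16-F10 on the right (4 WT and 4 KO libraries). Points are libraries and black bars are group means. Rgs5, Rgs3, Rgs20 and Rgs17 of MC38 show OE points above all WT points, and no member separates the groups of B16-F10.

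Of the 8 members at a mean of at least 1 FPKM in MC38, 5 had groups that did not overlap, 3 higher in OE (Rgs5, Rgs3 and Rgs20) and 2 lower (Rgs19 and Rgs16). The same held for 50.6% of the 10748 genes tested, and since the family was selected on this contrast nothing is read from the count. The median log2 difference of the 8 members was -1.71e-06, beside -0.0088 over all tested genes. Differences between OE and WT were therefore spread over both directions within the family, from -0.35 for Rgs16 to 3.05 for Rgs5. Rgs4 and Rgs14 did not reach a mean of 1 FPKM.

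The summed level of the 10 genes in MC38 was 82.9 ± 2.89 FPKM in WT (SD, n = 4) and 90.0 ± 0.865 FPKM in OE (SD, n = 3). What differed more was its composition. R4 members made up 12.5 ± 0.667% of the sum in WT (SD, n = 4) and 24.3 ± 1.59% in OE (SD, n = 3), while RZ members made up 66.2 ± 0.619% and 54.9 ± 0.656%. Rgs5 alone went from 0.277% of the summed FPKM of the 10 genes to 10.2%, and Rgs19 from 61.9% to 49.4%. The R12 share was 21.3 ± 1.01% in WT (SD, n = 4) and 20.8 ± 1.22% in OE (SD, n = 3), closer than the spread between libraries. Shares inside a sum depend on each other, so a lower share of Rgs19 partly restates the higher level of Rgs5. They also hold for these 10 genes only. Rgs17, an RZ gene outside the 10, stood at 5.29 FPKM in WT and 14.1 FPKM in OE. With it the RZ sum was higher in OE (63.5 FPKM) than in WT (60.2 FPKM).

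**Figure D2:**
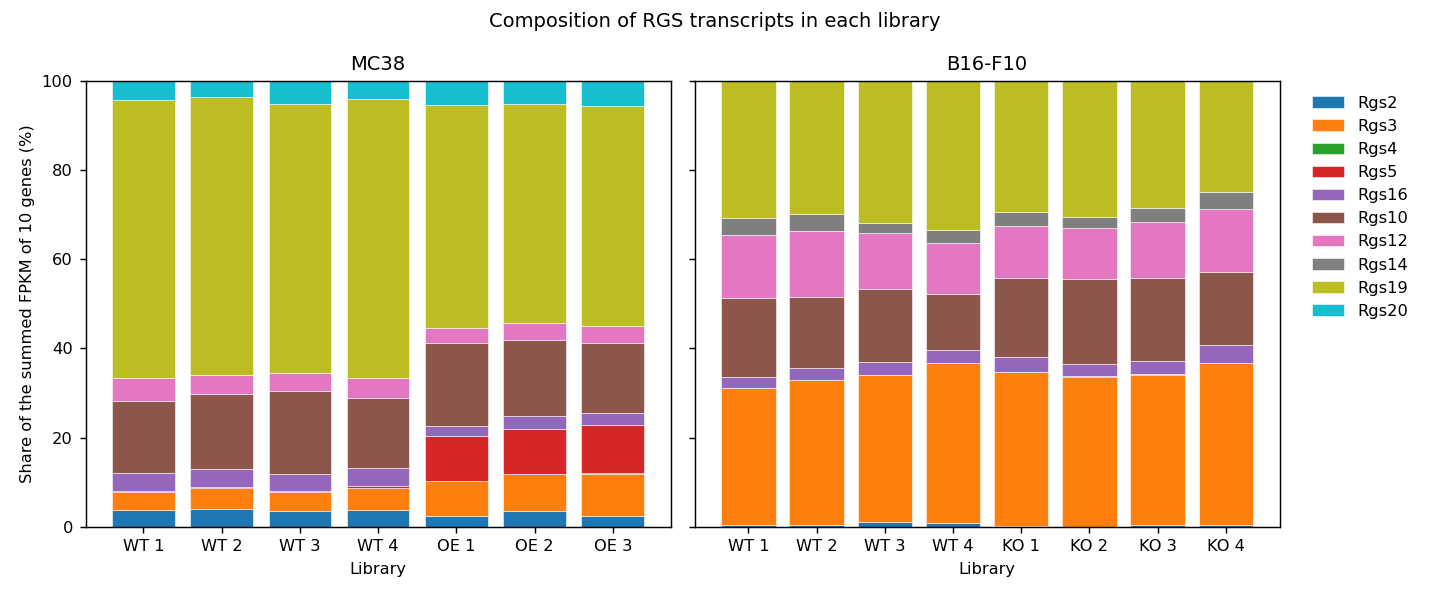
Share of each gene in the summed FPKM of the 10 RGS genes, in percent, with 1 bar per library of MC38 (left) and B16-F10 (right). Rgs19 fills most of each MC38 WT bar, Rgs5 becomes visible in the 3 MC38 OE bars at a mean of 10.2%, and in B16-F10 the largest segments are Rgs3 and Rgs19.

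Within MC38 WT the order of levels was Rgs19, then Rgs10, then a cluster of Rgs3, Rgs12, Rgs20, Rgs16 and Rgs2 at 3.11 to 3.75 FPKM in which each neighbour's range overlapped the next. Rgs5 at 0.230 FPKM was clearly below this cluster, and Rgs4 and Rgs14 were at or near 0. In OE the ranges of Rgs19, Rgs10, Rgs5, Rgs3 and Rgs20 were each separate from the next, in that order, and Rgs12, Rgs2 and Rgs16 overlapped at 2.40 to 3.28 FPKM. Rgs5 thus moved from rank 8 to rank 3 of 10. In B16-F10 WT, Rgs3 at 20.3 FPKM and Rgs19 at 19.3 FPKM overlapped at the top, Rgs10 at 9.70 and Rgs12 at 8.16 FPKM overlapped below them, and Rgs14 and Rgs16 overlapped at 2.00 and 1.73 FPKM. In B16-F10 KO the order was the same for the first 4, with separate ranges, and the means of Rgs16 and Rgs14 were exchanged within overlapping ranges. The tables of the lines were normalized separately, so levels are not compared between them by a test. Rgs2, Rgs5 and Rgs20, with means of 2.56 to 9.19 FPKM in MC38 OE, were at most 0.672 FPKM in any B16-F10 library, and Rgs14 was the reverse, with means of 2.00 and 2.05 FPKM in B16-F10 and at most 0.0124 FPKM in any MC38 library.

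The knockout contrast in B16-F10 did not choose the family and was tested with limma over 10902 genes with Benjamini-Hochberg adjustment. No member passed at an adjusted p of 0.05, 0 of 6 tested, beside 2.23% of all tested genes. At an unadjusted p under 0.05 there were 2 of 6, Rgs3 and Rgs10, beside 21.3% of all tested genes. The 2 groups overlapped for all 6 members, while 13.9% of tested genes had groups that did not overlap. The median log2 fold change of the 6 was 0.09, beside 0.02 over all tested genes.

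Rgs10 had the largest fold change of the 6. It was measured at 11.4, 10.2, 9.71 and 7.55 FPKM in WT and at 11.8, 11.9, 11.7 and 11.2 FPKM in KO. KO libraries were close together, and only WT library 1 reached into their range. Its log2 fold change was 0.25 (95% interval 0.03 to 0.48, limma adjusted p = 0.186). Without WT libraries 1 and 2, a choice made after seeing that they stood apart, it was 0.40 (limma adjusted p = 0.0105), the only alternative of 19 that took a member past the threshold. Without WT libraries 3 and 4 it was 0.11 (limma adjusted p = 0.275), and over all alternatives its adjusted p ranged from 0.0105 to 0.354. The call on Rgs10 therefore rests on which WT libraries are used. Without WT libraries 1 and 2, 19 of 61 other genes of G protein signalling, followed below, also passed. The share of all tested genes passing in that fit is not given here, so nothing is read from the call.

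Rgs3, the most abundant member in this line, was at 19.6, 20.8, 19.5 and 21.3 FPKM in WT and at 23.2, 21.0, 21.2 and 24.9 FPKM in KO. KO libraries 2 and 3 lay within the WT range and KO libraries 1 and 4 above it. The log2 fold change was 0.15 (95% interval 0.0051 to 0.29, limma adjusted p = 0.221). Rgs16 was at 1.67 to 1.77 FPKM in WT and at 2.16, 1.76, 1.91 and 2.79 FPKM in KO. KO library 2 fell inside the narrow WT range and KO library 4 was highest, with a log2 fold change of 0.20 (95% interval -0.02 to 0.42, limma adjusted p = 0.288). Rgs19 ranged from 18.8 to 19.9 FPKM in WT and from 17.1 to 19.7 FPKM in KO, a log2 fold change of -0.07 (95% interval -0.19 to 0.05, limma adjusted p = 0.501).

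Rgs12 and Rgs14, the scaffold members of R12, varied with the WT libraries that stood apart. Rgs12 was at 9.02, 9.37, 7.45 and 6.80 FPKM in WT, and from 7.16 to 9.67 FPKM in KO. Rgs14 was at 2.39, 2.53, 1.42 and 1.65 FPKM in WT, and from 1.58 to 2.57 FPKM in KO. For both genes WT libraries 1 and 2 were above WT libraries 3 and 4, and the KO range overlapped both pairs. Their log2 fold changes were 0.0027 (95% interval -0.24 to 0.25, limma adjusted p = 0.992) and 0.04 (95% interval -0.28 to 0.36, limma adjusted p = 0.918). The sign of both turned with the libraries used. Without WT library 3, WT library 4 or KO library 4 it became negative (Rgs12 at -0.033, -0.071 and -0.073, Rgs14 at -0.061, -0.018 and -0.043), and without WT libraries 3 and 4 together the values were -0.16 and -0.19. Rgs2, under 1 FPKM and not tested, was at 0.267, 0.224, 0.672 and 0.497 FPKM in WT and at 0.135, 0.0363, 0.246 and 0.296 FPKM in KO. There WT libraries 1 and 2 were the low ones, and they overlapped with KO.

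**Figure D3:**
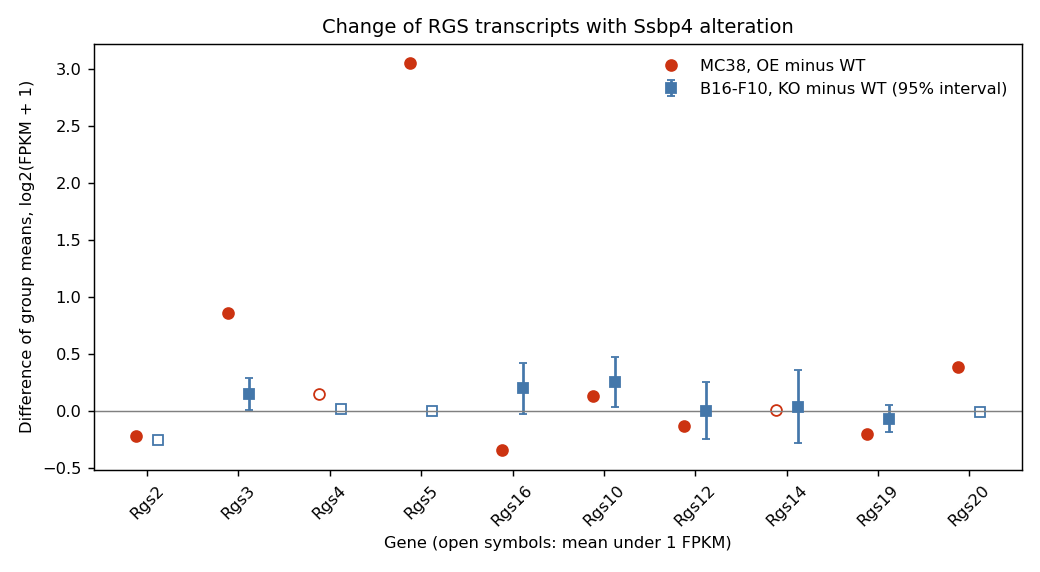
Difference of group means in log2(FPKM + 1) for each RGS gene, OE minus WT in MC38 (circles, with no interval because this contrast selected the family) and KO minus WT in B16-F10 (squares, with 95% limma intervals). Open symbols mark genes with a mean under 1 FPKM. Rgs5 stands at 3.05 in MC38, and the B16-F10 values of the 6 tested genes lie between -0.07 and 0.25.

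Across the 7 MC38 libraries the genes whose log2(FPKM + 1) followed that of Rgs5 most closely, among 8138 genes with a mean of at least 5 FPKM, were Slc14a1 (Pearson r = 0.9999), a urea transporter, Mapre2 (r = 0.9995), a microtubule end-binding protein, and Asb4 (r = 0.9994). Slc14a1 stood at 2.59 FPKM in WT and 16.03 FPKM in OE, Mapre2 at 15.2 and 50.9 FPKM, and Asb4 at 0.580 and 13.1 FPKM. The 7 libraries fell into the 2 groups for each of these genes, so r describes mainly the gap between groups. Slc14a1 and Asb4 reached the mean of 5 FPKM only through OE. The Rgs5 values are also those that selected the family, so nothing is read from this order. For Rgs3 the closest genes were Tbrg1 (r = 0.995), Uaca and Tnfsf12. Tnfsf12, at 4.02 FPKM in WT and 6.82 FPKM in OE, also reached the filter through OE. Rgs19 was followed most closely by Clpb (r = 0.996), Ppan and Cactin, all lower in OE like it, and Rgs10 by Arl8a (r = 0.963), Pgrmc1 and Thg1l. In the 8 B16-F10 libraries, over 8463 genes, Rgs10 was followed most closely by Lrch1 (r = 0.992), Btbd1 and Plekha1, Rgs3 by Ahdc1 (r = 0.971), Armc10 and Acadvl, and Rgs19 by Colgalt1 (r = 0.964), Wasf1 and Gga2. The values of r given are the highest out of all genes compared. Ahdc1, at 4.71 FPKM in WT and 5.35 FPKM in KO, reached the mean of 5 FPKM through KO.

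Because Rgs5 marks mural cells, markers of other cell types were set beside it. In MC38 the 11 pericyte and mural genes listed summed to 6.20 to 8.26 FPKM in WT and 15.1 to 17.3 FPKM in OE. Most of this was Cspg4, a proteoglycan, at 6.26 FPKM in WT and 13.8 FPKM in OE (log2 fold change 1.04, limma adjusted p = 1.14e-05), and Pdgfrb, the platelet-derived growth factor receptor beta, at 0.424 and 1.88 FPKM. Pdgfrb reached the filter of a mean of 1 FPKM only through the OE libraries, so its difference is a description with no test. The other 9 were under 1 FPKM in both groups, and Kcnj8, Abcc9 and Higd1b, defining genes of pericytes, were at 0 in all 7 libraries. Endothelial genes summed to at most 0.287 FPKM and leukocyte genes to at most 0.0650 FPKM in any MC38 library. In B16-F10, where Rgs5 was at or near 0, the same 11 genes summed to 4.36 to 5.34 FPKM in WT and 5.86 to 7.12 FPKM in KO. Of the 3 that were tested, 1 passed, beside 2.23% of all tested genes. Pdgfrb rose from 1.76 to 3.25 FPKM (log2 fold change 0.63, limma adjusted p = 0.00869). Cspg4, at 1.22 and 1.33 FPKM (limma adjusted p = 0.775), and Des, at 1.41 and 1.67 FPKM (limma adjusted p = 0.593), did not pass. Acta2, Kcnj8 and Abcc9 were at 0. In bulk RNA, a different number of cells of a type and a different level per cell cannot be told apart.

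The other RGS genes were under a mean of 1 FPKM in both lines, with 1 exception. Rgs17, the third RZ gene and a relative of Rgs19 and Rgs20, was at 6.03, 4.95, 5.39 and 4.80 FPKM in MC38 WT and at 13.3, 14.1 and 14.99 FPKM in OE. All OE libraries were well above all WT libraries, and Rgs17 rose from 5.29 ± 0.550 (SD, n = 4) to 14.1 ± 0.851 FPKM (SD, n = 3), a log2 fold change of 1.27 (SE 0.07, limma adjusted p = 5.15e-07). It was the 1 of 11 other RGS genes that reached the filter. In this contrast, which also selected the family, 47.5% of all tested genes passed. The list that holds Rgs17 was chosen with earlier results of these data known. With Rgs17 added, the RZ sum was 60.2 ± 1.34 FPKM in WT (SD, n = 4) and 63.5 ± 0.622 FPKM in OE (SD, n = 3), where without it the values were 54.9 and 49.3 FPKM. Rgs17 was at 0 in all 8 B16-F10 libraries, and there the most abundant of the 11, Rgs11, stood at 0.569 ± 0.298 FPKM in WT and 0.332 ± 0.151 FPKM in KO (SD, n = 4 each).

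Around the family, 120 genes of G protein signalling in 8 lists were followed, of which 57 reached the filter in MC38. Rose and fell refer here to genes past a limma adjusted p of 0.05. Of the 57, 23 rose and 10 fell in OE, beside 23.9% higher and 23.6% lower among all genes tested (47.5% in either direction), and their median log2 fold change was 0.04 against -0.0088 for all genes. Of the 33 that passed, 24 did so whichever library was left out. The same share over all genes that passed is not given here, so nothing is read from this count. The 9 lost without some library were Adcy3, Ccdc88a, Gnai3, Gnaq, Pik3cb, Ric8a, Ric8b, S1pr2 and Snx13. The counts that rose or fell in each list below include these 9. S1pr2 and Ric8b were each lost without any 1 of 5 libraries. Gng2 and Itpr2, among the genes named below, were under 1 FPKM in 1 group and reached the filter through the group where they were high, and both also passed with no filter on level.

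G alpha subunits, the substrates of RGS proteins, numbered 9 tested, of which 4 rose and 2 fell. Gnai1, an inhibitory alpha subunit that R4 and RZ proteins act on, rose by 0.57 on the log2 scale, from 1.42 to 2.59 FPKM, and Gna13 rose by 0.20, while Gna12 fell by 0.50, from 24.1 to 16.7 FPKM. Gnaq, the Gq alpha subunit, had a log2 fold change of -0.13 that passed narrowly (limma adjusted p = 0.0496) and was lost without any 1 of 6 libraries, all but WT library 4 (limma adjusted p = 0.0640 to 0.164). Of 8 beta and gamma subunits tested, 2 rose and 1 fell: Gng11 by 0.80, from 4.11 to 7.91 FPKM, and Gng2 by 0.69, from 0.938 to 2.13 FPKM, while Gng5, the most abundant at 213 FPKM in WT, fell by 0.29.

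Partners of RGS proteins and other regulators of G alpha numbered 9 tested, 5 of which rose and 1 fell. Gpsm2, which holds GDP-bound Gi alpha through GoLoco motifs as Rgs12 and Rgs14 do, rose by 0.81 from 17.4 to 31.3 FPKM. Gnb5, the beta subunit that pairs with R7 RGS proteins, rose by 0.52 from 3.67 to 5.67 FPKM. Ric8a, a chaperone and exchange factor for G alpha, had a log2 fold change of -0.18 (limma adjusted p = 0.0355) that was lost without OE library 1, OE library 2, WT library 2 or WT library 4 (limma adjusted p = 0.0782 to 0.133). Proteins with an RGS domain outside the canonical groups numbered 8 tested, with 3 higher and 2 lower. Arhgef11, which acts downstream of G12 and G13, fell by 0.75 from 14.2 to 8.02 FPKM and the Wnt scaffold Axin1 by 0.21, whereas the sorting nexins Snx14 and Snx25 rose by 0.35 and 0.28.

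Among receptors only 5 of 33 listed genes reached the filter and 4 of them rose. Lpar1, a receptor for lysophosphatidic acid, rose by 1.10 from 25.5 to 55.7 FPKM, and F2r, the thrombin receptor, rose by 0.35 from 16.8 to 21.6 FPKM. Of 3 receptor kinases and arrestins, 1 passed, Grk6, which fell by 0.28. Effectors numbered 14 tested, with 4 higher and 3 lower: the adenylyl cyclase Adcy8 rose by 1.37 from 1.37 to 5.13 FPKM and the phospholipase Plcb1 by 0.69, while the calcium release channel Itpr2 fell by 0.81 from 2.08 to 0.753 FPKM. Adcy3, another cyclase, had a log2 fold change of -0.26 (limma adjusted p = 0.0221) that was lost without OE library 1, OE library 3 or WT library 4 (limma adjusted p = 0.0505 to 0.0956).

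**Figure D4:**
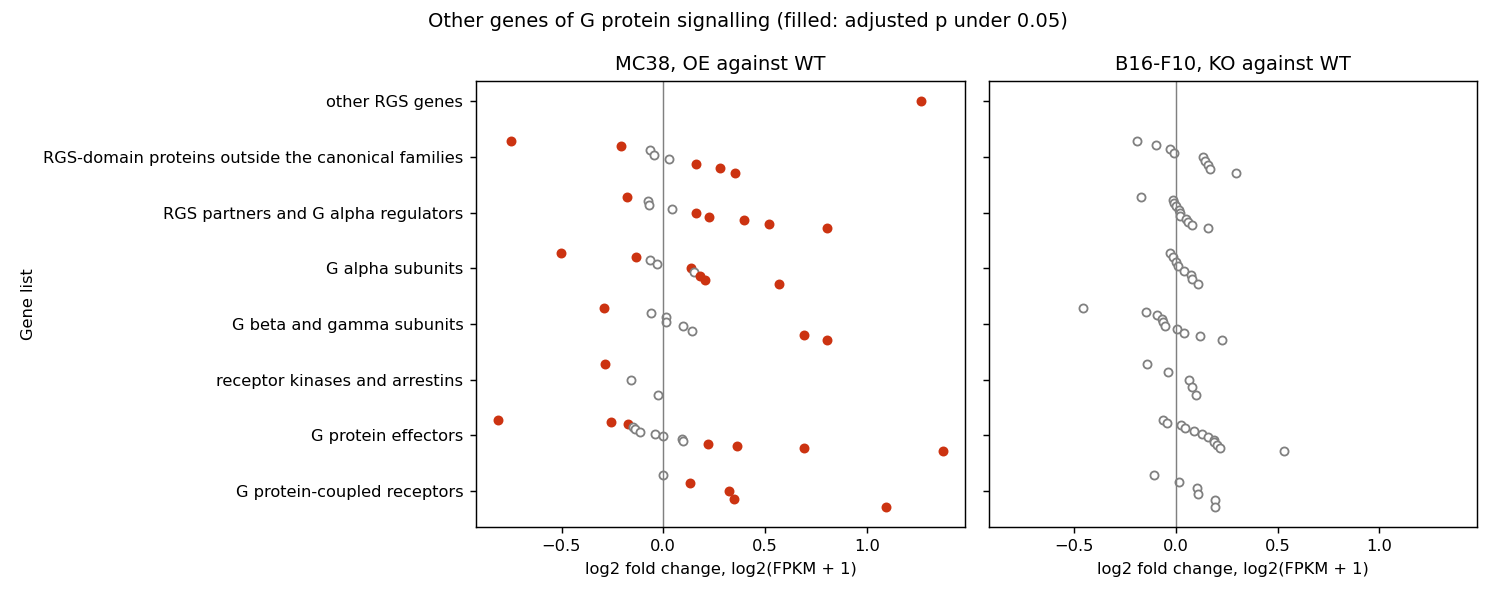
Log2 fold change, on log2(FPKM + 1), of each tested gene in the 8 lists around the RGS family, OE against WT in MC38 (left) and KO against WT in B16-F10 (right). Filled points have a limma adjusted p under 0.05. In MC38 33 of 57 points are filled and in B16-F10 0 of 61.

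In B16-F10 none of 61 tested genes of these lists passed in limma, beside 2.23% of all tested genes, and 12 were at an unadjusted p under 0.05, beside 21.3% of all tested genes. The lowest adjusted p was that of Itpr2, at 1.95 FPKM in WT and 3.28 FPKM in KO (log2 fold change 0.53, limma adjusted p = 0.0545), named after its value was seen. Leaving out libraries moved the count of genes passing, to 2 without KO library 4, 19 without WT libraries 1 and 2, and 6 without WT libraries 3 and 4. The 2.23% belongs to the fit of all 8 libraries. The share of all tested genes passing with libraries left out is not given here, so nothing is read from these counts. In each list with a tested gene the most abundant one had a limma adjusted p of at least 0.143: Gnas among alpha subunits (493 and 519 FPKM in WT and KO), Gnb1 among beta and gamma subunits (321 and 309 FPKM), Park7 among partners, Arhgef1 among RGS-domain proteins, Grk2 among kinases, Itpr1 among effectors, and the melanocortin receptor Mc1r among receptors (53.8 and 61.9 FPKM).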

How the data were processed

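Libraries, 15 in all, were made from polyA RNA with a kit that keeps strand, per the labels' protocols. The authors deposited FPKM values, 1 table for each line. GRCm39 and DESeq2, with no version, are named in the submitters' processing notes, and how reads were aligned and counted is not given in the sources used here. Every column was matched to a sample by its label, with 0 left over.

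The FPKM values as deposited were put on the log2(FPKM + 1) scale and fitted by limma 3.58.1 (R 4.3.3, trend option). Genes needed a mean of at least 1 FPKM in the line, and each line was fitted alone with Benjamini-Hochberg adjustment over all tested genes. Replicates differed beyond sampling noise, with a chi-square of 5.95 to 32.04 per degree of freedom. For depth, lengths of single-transcript genes came from GENCODE, and 78.4 to 84.7% of low values lay within 0.1 of a whole fragment, so whole reads were not recovered for nearly all genes and no count model was used.

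The genes and the lists were chosen with earlier results of these data known. The text names all 10 RGS genes, Ssbp4, per list and line up to 2 highest and 2 lowest fold changes among genes that passed or else the most abundant gene, and the 3 genes of highest Pearson r for the 3 most abundant RGS genes of a line and for Rgs5 in MC38. Marker genes came from lists. Alternatives changed the pseudocount, the filter, the scaling, the variance model and the library weights, added a replicate block, and left out each library. Plots used matplotlib 3.10.9 (Python 3.11.15).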

Additional observations from a re-analysis of the deposited data

Results flagged for a closer look

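In 28 groups of 4 libraries, an RGS gene and a group each, 4 held a library far from the other 3. In all 4 the other 3 libraries were listed at 0, so that any single value above 0 meets the criterion, and the usual chance rate of about 1 in 20 does not apply to them. Rgs4 stood at 0.0208 FPKM in MC38 WT library 4, Rgs5 at 0.0104 FPKM in B16-F10 WT library 2, and Rgs20 at 0.0481 FPKM in B16-F10 WT library 2 and at 0.0120 FPKM in B16-F10 KO library 2. The groups of 3 MC38 OE libraries were too small for this check.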

How the results depend on the processing

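In MC38 all 8 measured RGS genes kept the sign of their difference under every alternative that gave a value; with a pseudocount of 0.1 Rgs5 stood at 4.83 and Rgs3 at 1.01. Rgs17 kept its call under 16 alternatives, at 1.23 to 1.40 (limma adjusted p up to 7.50e-05). The count of listed genes passing in MC38 was 24 to 36, and 26 to 32 when 1 library was left out. In B16-F10 the count of RGS genes passing was 0 under 18 of 19 alternatives and 1 without WT libraries 1 and 2, a choice added after seeing the data like that without WT libraries 3 and 4. The count of listed genes passing there was 2 with a common total, 3 with library weights, 0 to 2 when 1 library was left out, 19 without WT libraries 1 and 2 and 6 without WT libraries 3 and 4. The share of all tested genes passing under these alternatives is not given here, so nothing is read from these counts. Their cause was not tested. Rgs12 in B16-F10 changed sign to -0.015 under median-of-ratios scaling, -0.10 with library weights and -0.16 without WT libraries 3 and 4, and ranged from -0.073 to 0.066 when 1 library was left out. Rgs14 changed sign to -0.11 with library weights and -0.19 without WT libraries 3 and 4, and ranged from -0.061 to 0.12 when 1 library was left out. Same-numbered libraries did not clearly deviate together (correlations -0.288 to -0.066 in MC38 and -0.298 to 0.165 in B16-F10). Differently numbered libraries were not set beside them, so pairing by number is not excluded. With the number as a replicate block, 24 listed genes passed in MC38 and 0 in B16-F10, and 0 RGS genes passed in B16-F10. Genes under 1 FPKM rest on few fragments at this depth, and their differences were not tested.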
